A study of Mus musculus with 25 samples.

Results

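The genes described here are 10 transcriptional outputs of the MAPK pathway, the signalling chain that runs from growth factor receptors through RAS, RAF and MEK to the kinase ERK. They are the phosphatase genes Dusp4 and Dusp6, the inhibitor genes Spry2, Spry4 and Spred1, the transcription factor genes Etv4, Etv5, Fosl1 and Egr1, and Phlda1. They were taken by symbol as a set of ERK feedback and target genes, by a rule on the symbol alone, although the set was proposed with earlier results of these data known. All 10 were found among the 55450 genes of the count table, and all 10 were among the 18031 genes that passed a filter on low counts.

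The data came from 25 tumours of 1 mouse melanoma line, B2905 or M4, carried by C57BL/6 mice, with 1 bulk RNA library per tumour. The study implanted 40 mice and started dosing once the tumours averaged 75 mm3. Antibodies were dosed at 10 mg/kg on a schedule of repeated weekly doses. The 5 controls received isotype antibody IgG2b. Of 30 mice given anti-CTLA-4, which blocks an inhibitory receptor of T cells, the tumours of 20 were sequenced. The study grouped these 20 tumours by their size 10 to 11 days after dosing ended. They comprise 8 responders that shrank, 6 stable tumours and 6 non-responders that kept growing. All 25 thus share the line, the host strain and exposure to an antibody. A further 5 untreated mice were not analysed here. Each tumour has its own identifier in the labels, and replicate numbers only name tumours.

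ERK is a kinase that, when active, enters the nucleus and induces a small set of fast and sustained target genes. Many of the products feed back on the pathway: the DUSP phosphatases remove phosphate from ERK, and the Sprouty and Spred proteins act further up, on RAS and RAF. The level of these transcripts is therefore widely read as a measure of pathway output, and in melanoma, where the pathway is often switched on by mutation, they fall when RAF or MEK is inhibited. ETV4 and ETV5 are ETS family transcription factors made in response to ERK. FOSL1, or FRA1, is a subunit of AP-1, EGR1 is an immediate early zinc finger factor, and PHLDA1 is a pleckstrin homology domain protein. In bulk tissue these genes are also transcribed by stromal and immune cells, and fewer cells of a type and less RNA per cell cannot be told apart.

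RefSeq promoter windows on GRCm38.p6 were matched for 4 of the 10 members, namely Dusp6, Spry2, Spred1 and Etv5, with 5 windows in all since Etv5 has 2 windows. The 250 bases before the start site are shown for 3 members called lower in both responders and stable tumours against controls, so that their sequence context can be compared. They are chr10:99262981-99263230 on the plus strand for Dusp6, chr14:105896820-105897069 on the minus strand for Spry2 and chr16:22439571-22439820 on the minus strand for the outer Etv5 start site, each 5′ to 3′.
Dusp6: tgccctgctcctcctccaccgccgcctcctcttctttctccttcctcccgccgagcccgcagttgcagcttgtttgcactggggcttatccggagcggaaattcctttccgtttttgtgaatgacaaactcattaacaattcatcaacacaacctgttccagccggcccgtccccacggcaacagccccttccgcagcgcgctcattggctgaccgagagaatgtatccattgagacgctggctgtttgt
Spry2: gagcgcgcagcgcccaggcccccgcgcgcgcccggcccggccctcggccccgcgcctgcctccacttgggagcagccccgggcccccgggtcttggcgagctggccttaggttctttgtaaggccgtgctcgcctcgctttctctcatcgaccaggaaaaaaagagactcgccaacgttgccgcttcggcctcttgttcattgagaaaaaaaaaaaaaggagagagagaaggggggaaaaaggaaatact
Etv5: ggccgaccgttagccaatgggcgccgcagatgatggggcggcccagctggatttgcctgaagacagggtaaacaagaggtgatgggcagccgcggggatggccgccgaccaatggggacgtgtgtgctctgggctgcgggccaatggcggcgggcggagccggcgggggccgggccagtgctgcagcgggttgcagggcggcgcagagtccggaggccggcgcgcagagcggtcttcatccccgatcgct

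The 5 windows of 300 bases were searched on both strands for the AP-1 motif TGANTCA, the CRE motif TGACGTCA, the ETS motif CCGGAA and the CArG box bound by SRF. None of these motifs contains another. The only match was an ETS motif in Spry2, starting 34 bases after the start site, shown in capitals with its flanks (chr14:105896771-105896796, minus strand).
Spry2 motif: gtcatctatcCCGGAAtccgggaggg
Among 32851 promoter windows of that length, 14.9% held the ETS motif, 7.81% the AP-1 motif, 1.79% the CRE motif and 1.63% the CArG box. A match or its absence describes only these letters in these windows.

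Library totals lay between 8.76 and 34.3 M counts. Protein-coding genes took 82.9% to 88.4% of counts in non-responders, 83.8% to 89.2% in stable tumours and 86.4% to 88.4% in controls. The share was 23.8% to 74.3% in 7 of 8 responders, lower than in all other libraries, while responder 5 had 87.0%. The calls of the members that involve responders, and those of pathway genes in responders against non-responders, were therefore repeated with this share as a term of the model (a covariate). They were also repeated with responder 5 as the only responder, a choice made after seeing the data in which that tumour is assumed to vary like the others. Mitochondrial rRNA took 1.15% to 14.3% of counts in responders and 1.31% to 7.28% in stable tumours, against 0.783% to 1.06% in non-responders and 0.546% to 0.966% in controls. That share in stable tumours and in responders thus lay above every control and every non-responder, and its part in the results was not tested. The library numbers follow the groups, so the order of libraries and the group cannot be told apart. The p-values below measure the spread between these tumours.

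The members differed widely in abundance. On the length-scaled RPKM values of the authors, Dusp6 had the highest median over the 25 tumours at 44.1 RPKM, close to Etv5 at 43.8 RPKM. Spred1 followed at 24.9, Dusp4 at 18.7, Spry4 at 15.9 and Spry2 at 15.4 RPKM. The least abundant were Phlda1 at 9.54, Etv4 at 7.04, Egr1 at 3.97 and Fosl1 at 1.195 RPKM. The range over tumours overlapped between every pair of neighbours in this order. The order also moved with the group: Dusp4 had a median of 54.8 RPKM in controls, above Spred1 at 24.7 RPKM, and 17.1 RPKM in stable tumours, below Spred1 at 25.7 RPKM.

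All further levels are in CPM, counts per M counts of the library after TMM scaling, which allows tumours to be compared for 1 gene. The TMM factor was 0.339 in responder 1 and 0.818 to 1.19 in all other libraries, so the CPM of responder 1 rest on a large correction. Differences are log2 fold changes with their SE from edgeR's quasi-likelihood test fitted over all genes. A gene is called when its Benjamini-Hochberg adjusted p is under 0.05.

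Both phosphatase genes fell in every anti-CTLA-4 group against controls. Dusp4, on GRCm38 chromosome 8 (34807297 to 34819894, plus strand, protein-coding like all 10 members in GENCODE M21), encodes a nuclear phosphatase of ERK and related kinases. Its level was 196, 166, 176, 203 and 166 CPM in the 5 controls. In non-responders it ranged from 55.0 CPM through a median of 89.6 CPM to 214 CPM, in stable tumours from 46.6 through 56.8 to 64.2 CPM, and in responders from 34.7 through 52.7 to 68.0 CPM. The control values lay above every stable tumour and every responder, while the non-responders reached from within the responder range upward, with non-responder 3 above all controls. The log2 fold change against controls was -1.69 in stable tumours (SE 0.25, adjusted p = 9.68e-06), -1.80 in responders (SE 0.23, adjusted p = 8.39e-07) and -0.79 in non-responders (SE 0.24, adjusted p = 0.0331). The last call was lost without any of non-responders 4, 5 and 6 or controls 1, 3 and 4. It was also lost without scaling and in a fit of the 2 groups alone. Under anti-CTLA-4 the change against non-responders was -1.01 in responders (SE 0.22, adjusted p = 0.000909) and -0.90 in stable tumours (SE 0.24, adjusted p = 0.0135). Without non-responder 3 these changes were -0.68 and -0.57, and the second was no longer called. That second call was also lost in a fit of the 2 groups alone. Between responders and stable tumours the difference was -0.11 (SE 0.22, adjusted p = 0.709).

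Dusp6 (chromosome 10, 99263231 to 99267489, plus strand), whose upstream sequence is shown above, encodes a cytoplasmic phosphatase with a preference for ERK. Its level was 308, 308, 259, 314 and 304 CPM in the controls. It ranged from 137 through a median of 182 to 289 CPM in non-responders, from 129 through 142 to 157 CPM in stable tumours and from 75.2 through 87.9 to 152 CPM in responders. Stable tumours varied least, responders lay lowest with 6 of 8 below every stable tumour, and responders 3 and 5 lay within the range of the stable tumours. Against controls its change was -1.06 in stable tumours (SE 0.19, adjusted p = 6.99e-05), -1.52 in responders (SE 0.17, adjusted p = 2.69e-07) and -0.63 in non-responders (SE 0.19, adjusted p = 0.0241). The last call was lost without any of non-responders 4 and 5 or controls 1 and 4, and without scaling. Responders were lower than non-responders (-0.88, SE 0.17, adjusted p = 0.000319) and than stable tumours (-0.45, SE 0.17, adjusted p = 0.035). The call against stable tumours was lost without any of responders 1, 4, 6, 7 and 8 or stable tumours 2, 4, 5 and 6, and with the protein-coding share in the model the difference was -0.11 (adjusted p = 0.815). With responder 5 as the only responder it was 0.09.

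**Figure D1:**
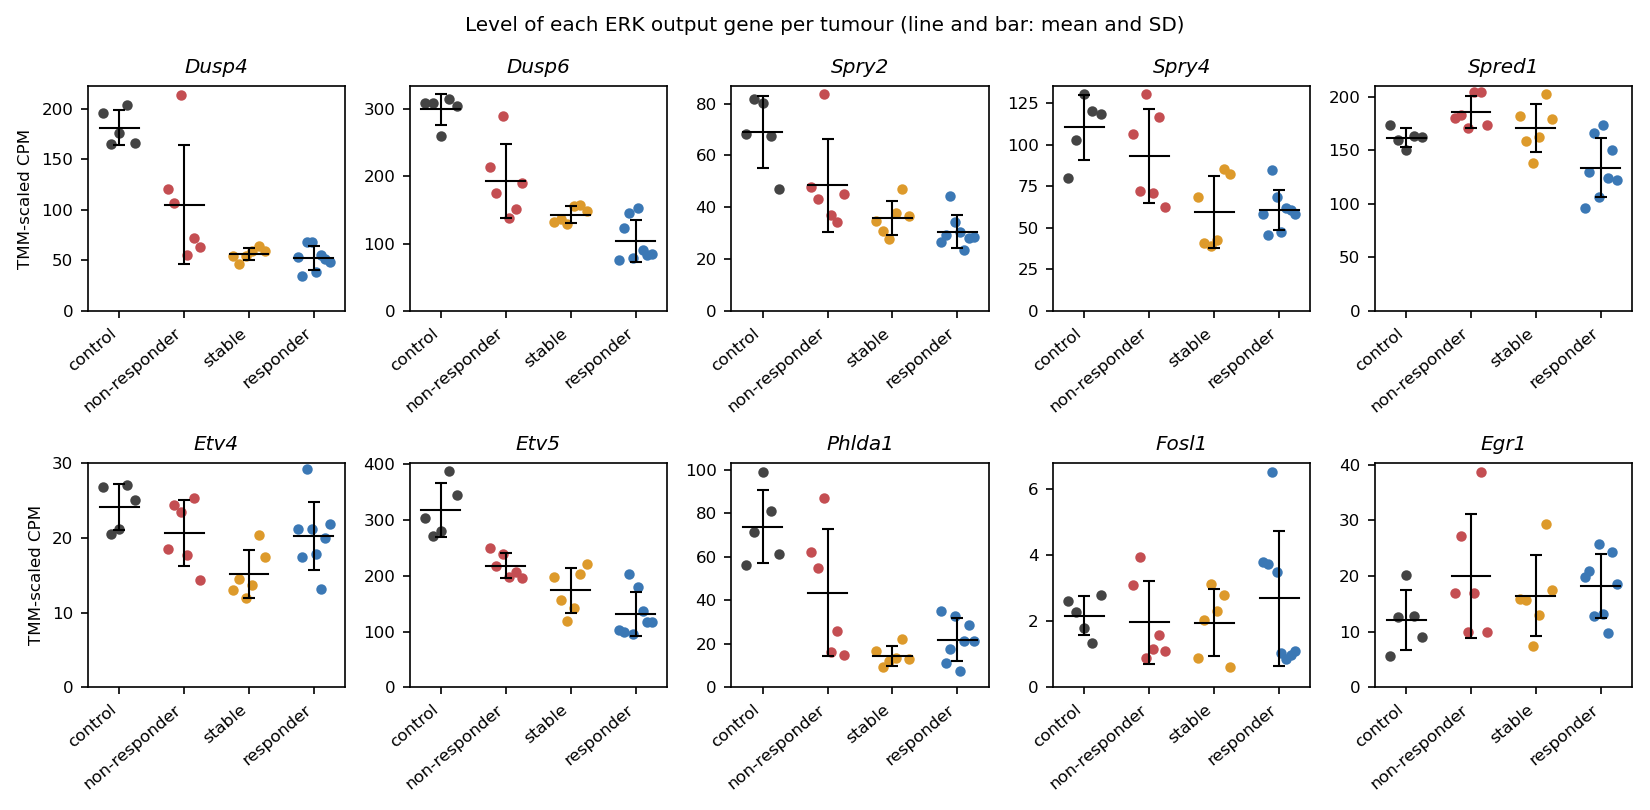
Level of each of the 10 genes in TMM-scaled CPM (vertical axis, from 0) in controls, non-responders, stable tumours and responders, with 1 point per tumour and a line and bar for the mean and SD. Dusp4, Dusp6, Etv5 and Phlda1 in the 5 controls lie above every stable tumour and every responder, while non-responders overlap the controls in all of these except Etv5.

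Spry2 and Spry4 fell against controls in stable tumours and in responders, while Spred1 was called lower in responders alone. Spry2 (chromosome 14, 105891947 to 105896819, minus strand) encodes an inhibitor induced by receptor signalling. Its level was 68.3, 81.8, 80.1, 67.6 and 47.0 CPM in the controls. It ranged from 34.2 through 44.1 to 83.8 CPM in non-responders, from 27.8 through 35.8 to 46.9 CPM in stable tumours and from 23.6 through 28.8 to 44.3 CPM in responders. Control 5 was the lowest control by a wide margin and still lay just above the highest stable tumour, and non-responder 3 lay above every other tumour. Spry2 fell against controls in stable tumours (-0.95, SE 0.20, adjusted p = 0.000438) and in responders (-1.17, SE 0.18, adjusted p = 1.04e-05), and was lower in responders than in non-responders (-0.66, SE 0.18, adjusted p = 0.00439). That last difference was -0.43 without non-responder 3, still called. The call was lost with the protein-coding share in the model (-0.57, adjusted p = 0.111) and with responder 5 as the only responder (-0.69, adjusted p = 0.455). In stable tumours against non-responders the difference was -0.44 (adjusted p = 0.123), and in non-responders against controls it was -0.51 (adjusted p = 0.0876).

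Spry4 (chromosome 18, 38586247 to 38601415, minus strand), a Sprouty gene of the same family, had levels of 80.1, 103, 130.5, 120.3 and 119 CPM in the controls. It ranged from 62.4 through 89.5 to 131 CPM in non-responders, from 39.0 through 55.6 to 85.3 CPM in stable tumours and from 45.5 through 59.7 to 84.7 CPM in responders. The groups overlapped through control 1, the lowest control, which lay below 2 of 6 stable tumours and 1 of 8 responders. The change of Spry4 against controls was -0.89 in stable tumours (SE 0.23, adjusted p = 0.00268) and -0.86 in responders (SE 0.21, adjusted p = 0.00105). Against non-responders it was -0.62 in responders (SE 0.20, adjusted p = 0.0148) and -0.64 in stable tumours (SE 0.22, adjusted p = 0.0467). The difference of non-responders from controls was -0.24 (adjusted p = 0.498). With the protein-coding share in the model the difference of responders from non-responders was -0.68 and no longer called (adjusted p = 0.101). Both calls against non-responders were lost without non-responder 3, and the second also without any of non-responders 1, 2 and 5 or stable tumours 1, 2, 3 and 4. The second was lost too without scaling and in a fit of the 2 groups alone.

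Spred1 (chromosome 2, 117121374 to 117182279, plus strand) encodes a Sprouty-related inhibitor that acts with neurofibromin on RAS. Its level was 174, 159, 150.2, 163 and 163 CPM in the controls, from 171 through 181 to 205 CPM in non-responders, from 138 through 171 to 203 CPM in stable tumours and from 96.0 through 127 to 174 CPM in responders. The controls, non-responders and stable tumours overlapped, and 5 of 8 responders lay below every control. No call was made in stable tumours (0.08, SE 0.13, adjusted p = 0.681) or non-responders (0.20, SE 0.13, adjusted p = 0.315) against controls. Responders were lower than non-responders (-0.48, SE 0.11, adjusted p = 0.00204), stable tumours (-0.35, SE 0.11, adjusted p = 0.0202) and controls (-0.28, SE 0.12, adjusted p = 0.0485). With the protein-coding share in the model these 3 differences were -0.22, -0.09 and -0.00 and none was called, and responder 1, with the lowest share, also had the lowest Spred1. The call against stable tumours was lost without stable tumour 5, and that against controls without any of responders 1, 2, 4, 6 and 8 or controls 1, 2, 4 and 5.

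A ratio of 2 genes within a library does not depend on library scaling, so Spred1 was also used as a reference, a choice made after its values were seen. The ratio of Dusp6 to Spred1 counts was 1.73 to 1.93 in controls and 0.722 to 0.959 in stable tumours. It was 0.672 to 1.70 in non-responders and 0.55 to 0.948 in responders, so that the control ratios lay above every other tumour. The ratio of Dusp4 to Spred1 counts was 1.02 to 1.25 in controls, 0.292 to 0.391 in stable tumours and 0.222 to 0.64 in responders. In non-responders it ran from 0.269 to 1.25 and overlapped the controls. Etv5 ratios were 1.7 to 2.37 in controls, above responders (0.757 to 1.22), non-responders (0.969 to 1.4) and stable tumours (0.868 to 1.23). Spry2 ratios were 0.289 to 0.533 in controls, above stable tumours (0.192 to 0.232). These control ratios overlapped responders (0.175 to 0.322) and non-responders (0.167 to 0.491). Spred1 was itself called lower in responders against controls (-0.28), so the ratios in responders rest on a reference that moved. In non-responders Spred1 was not called against controls (0.20), but 4 of 6 lay above every control, which lowers the ratios of those tumours.

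Of the ETS factor genes, Etv5 was called lower against controls in stable tumours and in responders, and Etv4 in stable tumours alone. Etv5 (chromosome 16, 22381309 to 22439719, minus strand) was at 303, 271, 280.3, 388 and 345 CPM in the controls. It ranged from 197 through 212 to 250.05 CPM in non-responders, from 120 through 177 to 221 CPM in stable tumours and from 95.5 through 117 to 202 CPM in responders. All 20 anti-CTLA-4 tumours lay below the lowest control. The change of Etv5 against controls was -0.87 in stable tumours (SE 0.19, adjusted p = 0.000522) and -1.27 in responders (SE 0.17, adjusted p = 1.77e-06). Against non-responders it was lower in responders (-0.73, SE 0.16, adjusted p = 0.0013). That call was lost with the protein-coding share in the model (-0.45, adjusted p = 0.115) and with responder 5 as the only responder (-0.29, adjusted p = 0.638). In non-responders against controls the change was -0.54 (SE 0.19, adjusted p = 0.0515), although the 2 groups did not overlap.

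Etv4 (chromosome 11, 101769742 to 101785371, minus strand) was at 26.9, 20.6, 21.2, 27.1 and 25.1 CPM in the controls. It ranged from 14.4 through 21.0 to 25.4 CPM in non-responders, from 11.9 through 14.1 to 20.4 CPM in stable tumours and from 13.2 through 20.6 to 29.3 CPM in responders. The stable tumours were the low group, all below the lowest control, and the other 3 groups overlapped. Etv4 fell in stable tumours against controls (-0.67, SE 0.17, adjusted p = 0.00306). It was higher in responders than in stable tumours (0.42, SE 0.16, adjusted p = 0.0404), the only call toward higher levels among the members, and that call was lost without any of responders 1, 3, 4, 7 and 8 or stable tumours 1, 2, 3 and 4. It was 0.38 with the protein-coding share in the model (adjusted p = 0.431). Responders and non-responders differed by -0.03 (SE 0.16, adjusted p = 0.902).

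Phlda1 (chromosome 10, 111506286 to 111508645, plus strand) had levels of 56.3, 71.5, 98.7, 81.0 and 61.4 CPM in the controls. It ranged from 14.8 through 40.2 to 87.1 CPM in non-responders, from 9.26 through 13.4 to 22.4 CPM in stable tumours and from 7.42 through 21.5 to 35.3 CPM in responders. The controls lay above all stable tumours and responders, and non-responders 1, 2 and 3, at 62.1, 54.7 and 87.1 CPM, lay within or close to the control range. The change of Phlda1 against controls was -2.34 in stable tumours (SE 0.41, adjusted p = 7.23e-05) and -1.76 in responders (SE 0.37, adjusted p = 0.000276). Against non-responders it was -1.57 in stable tumours (SE 0.39, adjusted p = 0.0105) and -0.996 in responders (SE 0.36, adjusted p = 0.0253). The call for responders against non-responders was lost without any of non-responders 1, 2 and 3, and in limma on log2(RPKM + 1).

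The AP-1 and EGR members gave no call in any of the 6 comparisons. Fosl1 (chromosome 19, 5447547 to 5455946, plus strand) was at 2.60, 2.28, 1.80, 1.34 and 2.79 CPM in the controls, from 0.902 to 3.93 CPM in non-responders, from 0.622 to 3.12 CPM in stable tumours and from 0.85 to 6.50 CPM in responders. All groups overlapped, and responders 1 to 4 lay between 3.49 and 6.50 CPM while responders 5 to 8 lay between 0.85 and 1.10 CPM. Its differences ranged from -0.15 to 0.45, with SE of 0.47 to 0.52. Egr1 (chromosome 18, 34859823 to 34864984, plus strand) was at 5.67, 12.6, 20.3, 12.8 and 9.05 CPM in the controls, from 9.90 to 38.7 CPM in non-responders, from 7.53 to 29.4 CPM in stable tumours and from 9.73 to 25.7 CPM in responders. The groups overlapped throughout, and the difference of non-responders from controls was 0.72 (SE 0.37, adjusted p = 0.195).

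**Figure D2:**
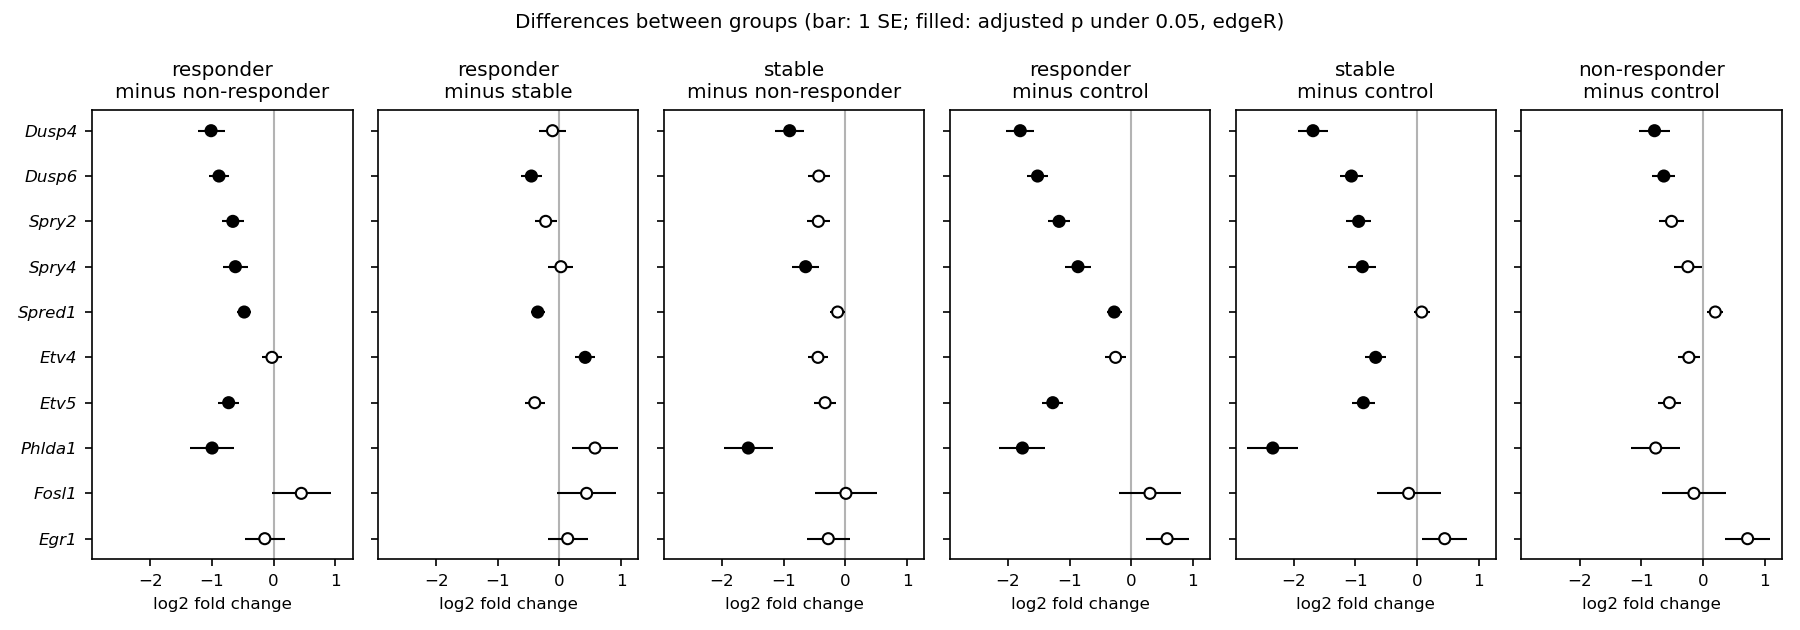
Log2 fold change of each gene (horizontal axis) in the 6 comparisons, with a bar of 1 SE and a filled point where the adjusted p was under 0.05. In stable tumours and in responders against controls 7 of 10 genes were called lower, and Fosl1 and Egr1 were not called in any panel.

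Counted over the set, 7 of the 10 members were called lower in stable tumours than in controls and none higher, where 19.6% of all tested genes were called lower and 22.2% higher. The median log2 fold change of the members was -0.88, against 0.02 for all genes tested. This comparison, whose libraries overlapped in protein-coding share but not in mitochondrial rRNA share, gave 7 calls under every alternative setting and without any 1 tumour. In 6 members the stable tumours and controls did not overlap, with all 6 lower, where 17.2% of all genes were lower without overlap.

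In responders against controls, 7 of 10 members were called lower and none higher, where 28.9% of all genes were called lower and 36.1% higher. The median was -1.02 for the members and 0.16 for all genes. With the protein-coding share in the model 6 were called, at -1.90 for Dusp4, -1.15 for Dusp6, -1.07 for Spry2, -0.92 for Spry4, -0.98 for Etv5 and -2.55 for Phlda1. With responder 5 as the only responder 4 were called, namely Dusp4 (-2.27), Dusp6 (-1.01), Etv5 (-0.86) and Phlda1 (-3.35), while Spry2 (-1.22, adjusted p = 0.0569) and Spry4 (-1.25, adjusted p = 0.094) were not. In 5 members the groups did not overlap, where 15.2% of all genes were lower without overlap.

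In non-responders against controls, 2 of 10 members, Dusp4 and Dusp6, were called lower and none higher, where 3.29% of all genes were called lower and 10.6% higher. In 1 member, Etv5, the groups did not overlap, where 1.41% of all genes were lower without overlap. The median was -0.38 for the members and 0.04 for all genes. The number called ran from 0 to 5 over the tumours left out. It was 5 without non-responder 3, and 0 without any of non-responders 4 and 5 or controls 1 and 4. It was 1 without non-responder 6 or control 3.

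In responders against non-responders, 7 of 10 members were called lower and none higher, where 23.8% of all genes were called lower and 25.2% higher. The median was -0.64 for the members and 0.05 for all genes. The groups overlapped in every member, where 2.94% of all genes were lower without overlap. With the protein-coding share in the model 2 were called, Dusp4 (-1.11, adjusted p = 0.0289) and Phlda1 (-1.77, adjusted p = 0.0275), and Dusp6 was at -0.53 (adjusted p = 0.0541). Calls were fewer over all genes too, with 894 of 18031 called lower and 916 higher in that covariate fit. With responder 5 as the only responder none was called, at log2 fold changes of -1.47 for Dusp4 (adjusted p = 0.36), -0.98 for Spry4, -2.56 for Phlda1 and -0.35 for Dusp6. In that fit 1 gene of 19568 tested was called higher and 1 lower.

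In stable tumours against non-responders, 3 of 10 members were called lower and none higher, where 7.86% of all genes were called lower and 7.08% higher. These were Dusp4, Spry4 and Phlda1. The groups overlapped in every member, where 2.94% of all genes were lower without overlap, and the median was -0.43 for the members against -0.02 for all genes. The number was 1 without non-responder 3, and 5 in limma on log2(RPKM + 1). In responders against stable tumours, 2 members (Dusp6 and Spred1) were called lower, where 17.8% of all genes were, and 1 (Etv4) higher, where 20.5% were. The medians there were -0.04 for the members and 0.01 for all genes, and with the covariate no member was called. Those groups too overlapped in every member, where 0.288% of all genes were lower without overlap. The comparisons with controls share the same 5 libraries, as do those with each other group, so their counts are not independent of one another.

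Dusp4 and Phlda1 each had a larger SD in non-responders than in the other groups, and so did Dusp6, Spry2, Spry4 and Egr1. Dusp4 had an SD of 58.9 CPM there on a mean of 105 CPM (n = 6), against 17.3 CPM on 181 CPM in controls (n = 5) and 6.10 CPM on 56.3 CPM in stable tumours (n = 6). Non-responders 1, 2 and 3 had Dusp4 at 120.4, 107 and 214 CPM, and non-responders 4, 5 and 6 had it at 55.0, 72.4 and 63.5 CPM. Phlda1 split the same tumours, while Spry4 did not, since non-responder 5 had 117 CPM and non-responder 2 had 72.4 CPM. Etv5 differed little, from 197 to 250.05 CPM over all 6.

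Melanocyte markers also differed between the groups. The summed level of the 8 markers Mlana, Pmel, Dct, Tyrp1, Tyr, Sox10, Mitf and Slc45a2 was 10684 to 17512 CPM in controls, 726 to 14062 CPM in non-responders, 228 to 505 CPM in stable tumours and 304 to 725 CPM in responders. None of the 8 was at 0 throughout any group, although Mlana, Tyr and Slc45a2 were at 0 in at least 1 responder. All 8 were called lower in stable tumours and in responders, against controls and against non-responders. In non-responders 1 to 6 the sum was 3698, 7265, 14062, 1239, 908 and 726 CPM, so that the 3 tumours with the highest marker level were also the 3 highest in Dusp4 and Phlda1. Dusp6 did not follow that split, at 175 CPM in non-responder 2 and 189 CPM in non-responder 6, nor did Spry4, as given above. The part of melanocyte content in the levels of the members was not tested.

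**Figure D3:**
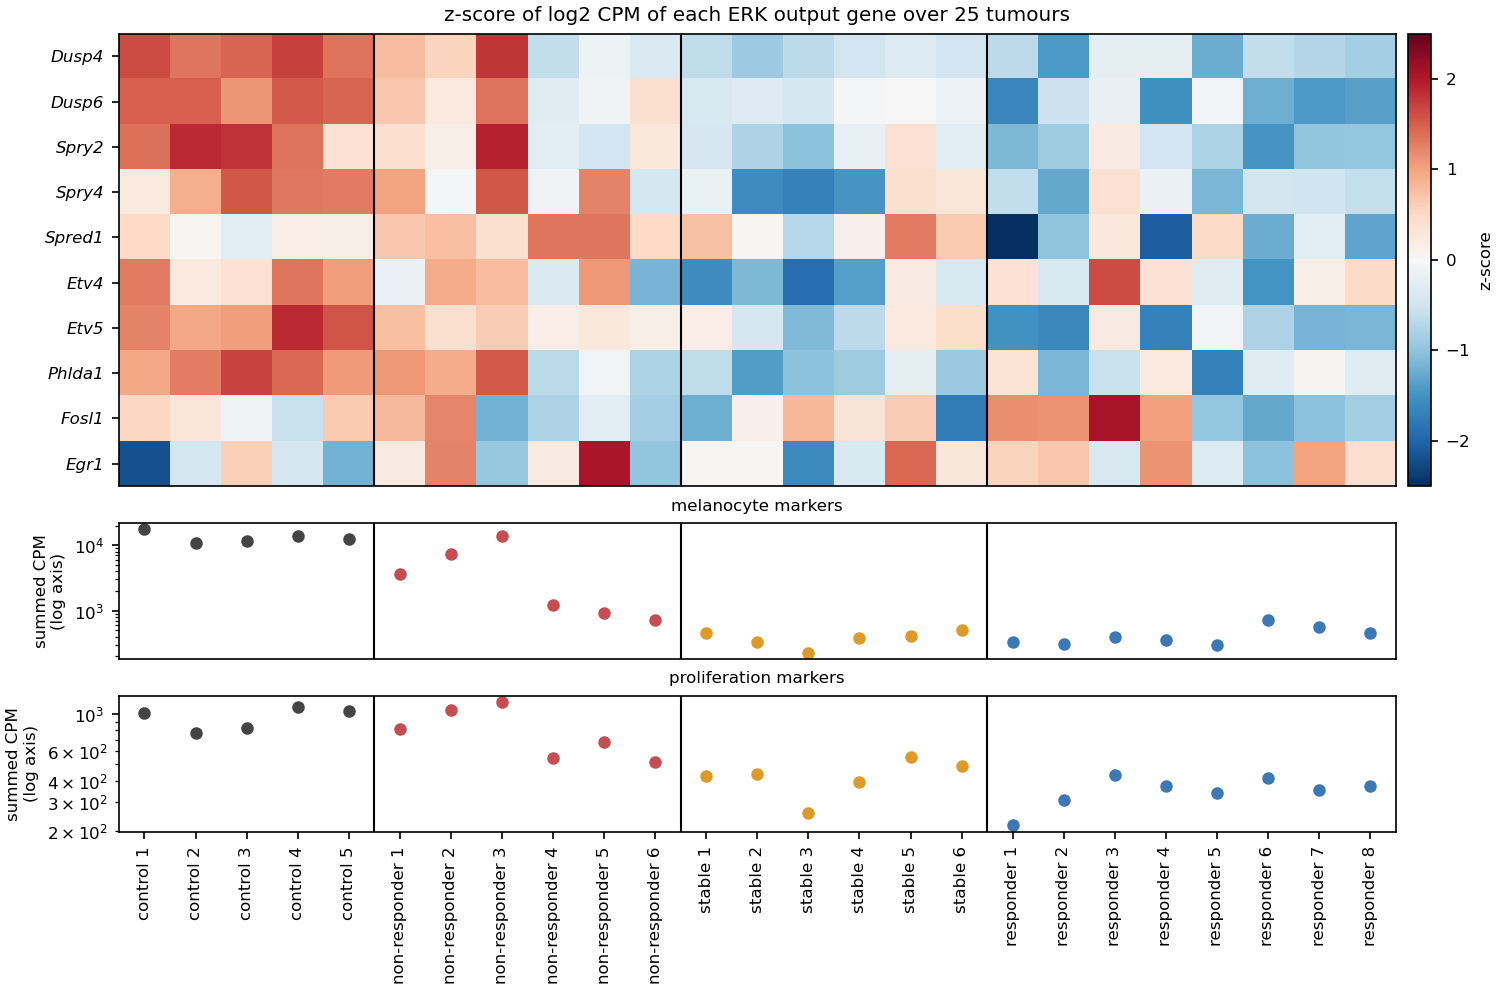
Upper panel, z-score of log2 CPM of each gene (rows) in each of 25 tumours (columns), and lower panels, summed CPM of 8 melanocyte and 6 proliferation markers on log axes, with 1 point per tumour. The controls and non-responders 1 to 3 have the highest melanocyte sums, and Dusp4 and Phlda1 are highest in the same 8 tumours.

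Markers of other cell types moved as well. The summed proliferation markers (6 genes) were 765 to 1097 CPM in controls, 520.0 to 1176 CPM in non-responders, 257 to 552 CPM in stable tumours and 217 to 434 CPM in responders. The macrophage and monocyte sum (7 genes) ran the other way, at 542 to 1038 CPM in controls, 922 to 7626 CPM in non-responders, 5581 to 8838 CPM in stable tumours and 2219 to 9623 CPM in responders. The T cell sum (7 genes) was 7.94 to 24.7 CPM in controls and 21.1 to 180 CPM in non-responders, and 127 to 207 CPM in stable tumours and 79.9 to 232 CPM in responders. The fibroblast sum (6 genes) was 3304 to 6250 CPM in controls and 5882 to 15888 CPM over the other groups, and the endothelial sum (5 genes) was 124 to 180 CPM in controls, 130.03 to 258 CPM in non-responders, 72.7 to 129 CPM in stable tumours and 38.6 to 93.6 CPM in responders. None of the markers of these 5 lists was at 0 in any tumour. The neutrophil sum (5 genes) was 2.83 to 5.07 CPM in controls, 3.61 to 34.1 CPM in non-responders, 27.9 to 57.5 CPM in stable tumours and 30.2 to 68.4 CPM in responders, with S100a8, S100a9, Retnlg or Cxcr2 at 0 in some tumours. The part of cell makeup, and of proliferation, in the differences of the ERK output genes was not tested.

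Other genes of the pathway were taken from 5 lists. Their counts in responders against non-responders stand beside 25.2% of all genes called higher and 23.8% lower. Those against controls stand beside 22.2% higher and 19.6% lower in stable tumours, and 36.1% higher and 28.9% lower in responders. Nothing particular to a list is read from these counts. Of 12 tested phosphatase, Sprouty and Spred genes outside the set, 5 were called higher and none lower in responders against non-responders, with a median of 0.38. In stable tumours against controls 3 rose, 1 fell and the median was 0.21. Spred3, a Spred family inhibitor, was at 9.71 to 38.2 CPM in responders and 6.14 to 13.1 CPM in non-responders (1.35, SE 0.23, adjusted p = 0.000167). With responder 5 as the only responder its difference was 0.01. Dusp14, a small phosphatase, was higher by 3.69 in responders than in non-responders (SE 1.05, adjusted p = 0.00662). Its levels ran from 0.378 through a median of 2.01 to 41.5 CPM in responders and from 0.344 to 1.62 CPM in non-responders. In controls they ran from 0.466 through 3.87 to 17.9 CPM, and responders did not differ from controls by a call (1.09, adjusted p = 0.333). The summed level of 4 keratinocyte markers also ranged widely over responders, from 0.494 to 1215 CPM, and their part in Dusp14 was not tested. Neither stayed called with the protein-coding share in the model, at 0.76 for Spred3 (adjusted p = 0.051) and 2.06 for Dusp14 (adjusted p = 0.221).

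Among 15 further immediate early, AP-1 and ETS genes, the comparison of responders with non-responders gave 4 higher and 2 lower calls. Fosl2, an AP-1 subunit, rose by 0.95 (SE 0.22, adjusted p = 0.00156) and Fosb, another, by 0.90 (SE 0.31, adjusted p = 0.0216). Etv1, the ETS factor most related to Etv4 and Etv5, fell by 0.84 (SE 0.28, adjusted p = 0.0185) and Elk3 by 0.56 (SE 0.13, adjusted p = 0.00155). Etv1 was at 118 to 194 CPM in controls and 14.4 to 53.1 CPM in stable tumours (-2.01, SE 0.33, adjusted p = 2.73e-05). Fitted with the protein-coding share, Fosl2 stayed called (0.89, adjusted p = 0.0466), while Fosb (0.69), Etv1 (-0.50) and Elk3 (-0.23) did not.

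Among 10 other ERK-responsive genes the same comparison gave 3 higher and 3 lower calls. Myc fell by 0.84 (SE 0.23, adjusted p = 0.00446) and Ccnd1, which encodes cyclin D1, by 0.76 (SE 0.22, adjusted p = 0.00776). In stable tumours against controls Myc fell by 1.55 (SE 0.26, adjusted p = 3.56e-05), from 49.9 to 89.9 CPM down to 12.8 to 31.0 CPM, without overlap. Plaur, the urokinase receptor gene, which is also expressed by myeloid cells, rose by 1.31 (SE 0.32, adjusted p = 0.00231) and Kcnn4, a potassium channel gene, by 0.63 (SE 0.21, adjusted p = 0.0156). In stable tumours Plaur was at 22.2 to 45.5 CPM against 5.07 to 9.40 CPM in controls, in the same tumours that were high in macrophage markers, whose part was not tested. When the protein-coding share was in the model, Myc (-1.22, adjusted p = 0.0176) and Plaur (1.35, adjusted p = 0.0355) stayed called, while Ccnd1 (-0.36) and Kcnn4 (0.59) did not.

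Among 21 genes of the RAS to ERK cascade it gave 3 higher and 4 lower calls, with a median of -0.10. Ptpn11, whose product SHP2 promotes RAS activation, fell by 0.45 (SE 0.08, adjusted p = 0.000266). Ksr1, a scaffold gene of the cascade, rose by 0.60 (SE 0.17, adjusted p = 0.00724) and Araf, a RAF kinase gene, by 0.58 (SE 0.10, adjusted p = 0.000198). The list had 6 higher and 3 lower calls in stable tumours and 7 higher and 9 lower calls in responders, each against controls. In the fit with the protein-coding share, Ptpn11 (-0.39, adjusted p = 0.0241) and Araf (0.40, adjusted p = 0.0372) stayed called, while Ksr1 (0.20) did not, and with responder 5 as the only responder Ksr1 was at -0.08.

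Among 22 receptor and ligand genes it gave 4 lower calls and none higher. Met, the receptor of hepatocyte growth factor, fell by 2.07 (SE 0.44, adjusted p = 0.000781). Met was at 816 to 1174 CPM in controls, 89.0 to 1045 CPM in non-responders, 75.0 to 123 CPM in stable tumours and 51.3 to 235 CPM in responders, so that controls did not overlap stable tumours or responders. It fell by 3.42 in stable tumours against controls (SE 0.52, adjusted p = 1.32e-05). Kitl, the ligand of the KIT receptor, fell by 1.31 in responders against non-responders (SE 0.19, adjusted p = 3.69e-05) and by 1.01 in stable tumours against controls (SE 0.21, adjusted p = 0.000391). Against controls, 6 genes of this list rose and 4 fell in stable tumours, and 8 rose and 4 fell in responders. Kitl stayed called against non-responders with the protein-coding share in the model (-1.10, adjusted p = 0.012), while Met (-1.51, adjusted p = 0.0817) did not. No gene of the 5 lists was called in that comparison with responder 5 as the only responder in edgeR. With responder 5 alone in its group, counts from that fit are not read as a result about the lists.

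**Figure D4:**
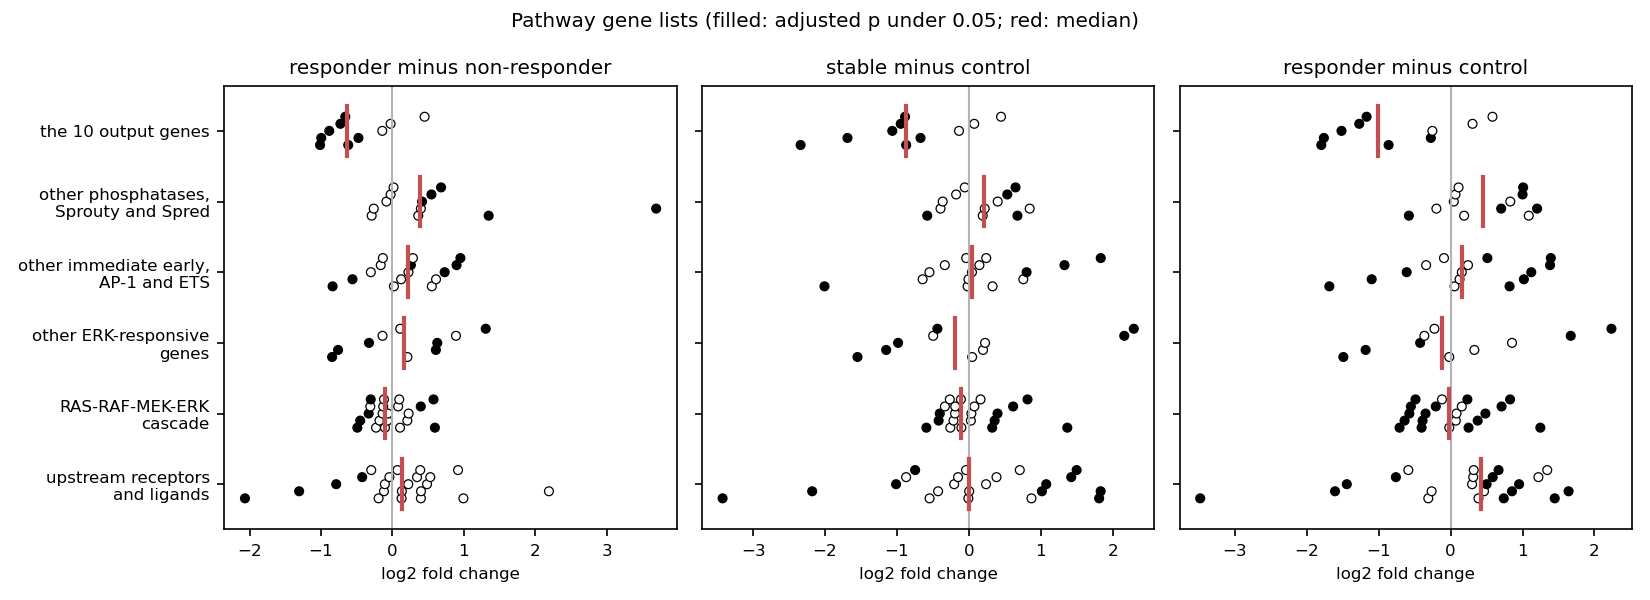
Log2 fold change (horizontal axis) of each tested gene of the 10 output genes and 5 pathway lists in 3 comparisons, with 1 point per gene, filled where the adjusted p was under 0.05, and a red line for the list's median. The output genes have a median of -0.64 in responders against non-responders and -0.88 in stable tumours against controls, while the other lists hold calls in both directions in the stable comparison.

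Within groups, after subtraction of the group means over 25 tumours, the members were loosely related, with pairwise Pearson r on log2 CPM from -0.38 to 0.82. The highest was between Dusp4 and Phlda1 (0.82), followed by Spred1 and Etv5 (0.71), Dusp4 and Spry2 (0.66) and Dusp6 and Spry2 (0.61). Dusp4 and Dusp6 had an r of 0.36, and Egr1 with Dusp6 had -0.38. The points share their libraries, depth and composition. These values describe the tumours and carry no test.

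Over the 25 tumours, genes among the most like the mean z-score of the 10 members were Yap1 (r = 0.95), St3gal5 (0.94), Nptxr (0.94) and Ect2 (0.93), of 13592 protein-coding genes compared. For Dusp6 alone they were Nckap1 (0.98), Timm17a (0.98) and Hsd17b12 (0.98), and for Spry2 alone Vdac1 (0.94), Scd2 (0.93) and Hk1 (0.93). These values pool groups that differ in level and in melanocyte markers, and the tumours of a group share those differences.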

How the data were processed

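RNA was measured in 25 tumours, 1 library each. The submitters' processing notes name bcl2fastq 2.17, Trimmomatic, STAR 2.5.1 and RSEM 1.2.22 with build mm10. The authors deposited estimated counts (expected counts) per gene, not normalized, of which 5.64% were not whole, and these were rounded. All 55450 gene identifiers matched GENCODE M21. The authors also deposited RPKM values, and no label or header states their gene lengths or denominator. The kit is stranded total RNA in the labels' protocols, while the molecule is given as polyA RNA.

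Genes were filtered with filterByExpr (18031 kept) and scaled with TMM. Tests used edgeR 4.0.16 in R 4.3.3, with robust quasi-likelihood fits over all 25 tumours, 4 group means and no covariate, two-sided, with Benjamini-Hochberg adjustment over all genes tested. The scripts were tested on simulated data. Alternatives were DESeq2 1.42.0, RLE or no scaling, other filters, fewer groups, protein-coding genes only, a protein-coding share covariate, limma 3.58.1 on log2(RPKM + 1) and log2(RPKM + 0.1), and leaving out tumours. Between replicates the smallest chi-square per gene was 17.1, so none differed by as little as sampling noise.

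The members and lists were chosen with earlier results of these data known. All members were named, and from each pathway list up to 2 called genes per direction with the largest change in responders against non-responders and a mean of at least 1 CPM. Of the listed genes, only Spry3 was not tested. A gene that these rules also name is not reported here.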

Additional observations from a re-analysis of the deposited data

Results flagged for a closer look

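In 40 checks, of 10 genes in 4 groups, 2 values stood apart from the rest of their group, as many as the 1 in 20 that chance gives. Spry2 in non-responder 3 was the highest of 6 non-responders at 83.8 CPM, and that tumour also had the highest Dusp4, Dusp6 and Phlda1 of the group. Dusp6 in control 3 was the lowest of 5 controls at 259 CPM, still above every stable tumour and every responder.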

How the results depend on the processing

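Of 29 called results for single genes, 12 kept their call under every alternative setting and without each tumour: Phlda1 in stable tumours against non-responders, Dusp4, Dusp6, Etv5 and Phlda1 in responders against controls, and all 7 in stable tumours against controls. No paired analysis was possible because the labels give the groups no shared replicate numbers. Fosl1 was not tested under the stricter filter. Without scaling, the median of all genes in responders against non-responders moved from 0.05 to -0.26. The cause of the changes below was not tested.

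Counts of called members moved by over 1.5 times as follows. In responders against non-responders, 7 became 2 with the protein-coding share covariate and 0 with responder 5 alone. In responders against stable tumours, 3 became 0 without scaling, with the covariate and with responder 5 alone, and 1 with no low-count filter, with the stricter filter and in the fit of 2 groups. In stable tumours against non-responders, 3 became 1 in the fit of 2 groups, 5 in limma on log2(RPKM + 1) and 6 on log2(RPKM + 0.1). In responders against controls, 7 became 4 with responder 5 alone, and in non-responders against controls, 2 became 0 without scaling. Leaving out 1 tumour at a time, the counts ranged from 5 to 7, 1 to 4, 1 to 4, 6 to 8 and 0 to 5 in these comparisons, in that order, and stayed at 7 in stable tumours against controls.

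Signs turned for the differences below, and not all of these were small. With responder 5 alone, 3 results called in the main fit turned. They were Dusp6 (-0.45) and Spred1 (-0.35) in responders against stable tumours, and Spred1 (-0.28) in responders against controls. Phlda1 in responders against stable tumours, not called, was 0.58 in the main fit. In responders against non-responders, Etv4 was 0.07 under the stricter filter, 0.02 with protein-coding genes only, and 0.10 and 0.11 in limma with each pseudocount, Egr1 was 0.00 in limma with 0.1, and Fosl1 was -0.92 with responder 5 alone. In responders against stable tumours with responder 5 alone, Dusp6 was 0.09, Spred1 0.03, Etv5 0.06, Phlda1 -0.97, Fosl1 -0.92, and Egr1 and Spry4 both -0.32. There Spry4 was -0.22 without scaling, -0.02 with no filter and -0.03 with the covariate, Phlda1 -0.17 and Egr1 -0.22 with the covariate, Egr1 -0.13 without scaling, and Dusp4 0.00 in both limma fits. In stable tumours against non-responders, Fosl1 was -0.12 without scaling, -0.03 with no filter, -0.02 with protein-coding genes only, and -0.12 and -0.18 in limma. Against controls, responder 5 alone had Spred1 at 0.06 and Fosl1 at -1.10, responders had Fosl1 at -0.07 without scaling, stable tumours had Spred1 at -0.07 with no filter, and non-responders had Fosl1 at 0.03 and 0.01 in limma. Leaving out single tumours turned Etv4 (-0.12 to 0.05) and Egr1 (-0.28 to 0.16) in responders against non-responders, Spry4 (-0.07 to 0.15) and Egr1 (-0.02 to 0.38) in responders against stable tumours, and Fosl1 (-0.17 to 0.34) and Egr1 (-0.52 to 0.02) in stable tumours against non-responders. It also turned Fosl1 against controls in responders (-0.05 to 0.44), stable tumours (-0.31 to 0.05) and non-responders (-0.48 to 0.00). Fosl1, the member of lowest level, also had the largest SE in each comparison.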
